A study of Mus musculus with 6 samples.

Results

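The genes described here encode proteins linked to forming tooth enamel, among them proteases that cut its matrix: Amelx, Ambn, Enam, Odam, Amtn, Tuft1, Mmp20 and Klk4. They were picked by symbol, and all 8 have a row among the 23420 gene symbols of the tables. RNA came from tooth germs of C57BL/6 mouse embryos labelled E15.5, in 3 libraries of Smad7-/- germs and 3 of wild-type germs. The labels name no other allele or agent, and they do not say which cells or which teeth the dissection held, whether germs were pooled, or whether libraries come from separate animals or litters. The p-values therefore measure the spread between these samples, part of which may be technical. Smad7 is an intracellular brake on signals of the TGF-beta and BMP families, and the design asks which tooth germ transcripts differ when it is lost.

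Enamel is laid down by ameloblasts, tall epithelial cells that face the dentin-forming odontoblasts. Amelogenin (Amelx) is the bulk protein of the secreted matrix, ameloblastin (Ambn) helps to hold ameloblasts to it, and enamelin (Enam) is needed for the mineral front to form. Mmp20, a metalloprotease, trims these proteins while the matrix is being secreted, and Klk4, a serine protease, degrades them later, during maturation. Odam and Amtn are matrix proteins of maturing ameloblasts and of the epithelium that attaches to the tooth surface, and Tuft1 (tuftelin) is expressed far beyond the tooth. Amelx, Ambn, Enam, Odam and Amtn belong to the secretory calcium-binding phosphoprotein (SCPP) family, which also holds the main dentin and bone proteins.

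Ambn, Enam, Amtn and Odam lie on the forward strand of chromosome 5 (mm10) within 621021 bases, Odam at 87885029 to 87894174, Amtn at 88376108 to 88385916, Ambn at 88455991 to 88468531 and Enam at 88487975 to 88506049. Ambn and Enam are separated by 19443 bases and lie next to each other in the annotation. Amelx lies on the reverse strand of chromosome X at 169176114 to 169187200, within the bounds of Arhgap6, a gene on the other strand with which it shares 0 exonic bases. Mmp20 lies on chromosome 9 at 7628231 to 7674979, Klk4 on chromosome 7 at 43881160 to 43885804, both on the forward strand, and Tuft1 on the reverse strand of chromosome 3 at 94612757 to 94658872. All 8 are annotated as protein-coding.

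The 250 bases upstream of the start are printed for the 5 SCPP members, since these genes share a family but not a pattern across the libraries. They are from RefSeq (GRCm38.p6), which held a promoter for 7 of the 8 genes, and read 5′ to 3′ on the strand of the gene. They span chrX:169187210-169187459 (minus strand) for Amelx, and chr5:88455741-88455990, chr5:88487725-88487974, chr5:87884760-87885009 and chr5:88375858-88376107 (plus strand) for Ambn, Enam, Odam and Amtn. Capitals mark matches on either strand to 5 motifs. TATAAA is the TATA box of many regulated promoters. CCAAT, the site of the factor NF-Y, appears as ATTGG when it lies reversed. CAGACA, the CAGA box that SMAD3 binds, appears as TGTCTG when reversed. The Runt core TGTGGT, bound by RUNX factors, appears as ACCACA when reversed. TAATTG is a core of sites for homeobox factors such as MSX2.
Amelx: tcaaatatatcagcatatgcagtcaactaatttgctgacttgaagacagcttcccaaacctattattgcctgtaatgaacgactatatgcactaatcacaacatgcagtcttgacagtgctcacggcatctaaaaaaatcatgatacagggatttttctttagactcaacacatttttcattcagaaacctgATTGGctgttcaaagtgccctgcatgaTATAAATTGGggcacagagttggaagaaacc
Ambn: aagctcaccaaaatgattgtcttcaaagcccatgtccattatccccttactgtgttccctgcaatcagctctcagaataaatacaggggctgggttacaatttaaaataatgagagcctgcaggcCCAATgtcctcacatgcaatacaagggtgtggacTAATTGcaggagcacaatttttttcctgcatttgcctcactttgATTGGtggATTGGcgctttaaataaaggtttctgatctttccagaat
Enam: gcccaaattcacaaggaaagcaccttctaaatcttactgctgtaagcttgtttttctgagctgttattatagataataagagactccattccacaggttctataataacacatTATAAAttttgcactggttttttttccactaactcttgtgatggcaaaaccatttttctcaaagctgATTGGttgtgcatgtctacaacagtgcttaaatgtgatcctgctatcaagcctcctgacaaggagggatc
Odam: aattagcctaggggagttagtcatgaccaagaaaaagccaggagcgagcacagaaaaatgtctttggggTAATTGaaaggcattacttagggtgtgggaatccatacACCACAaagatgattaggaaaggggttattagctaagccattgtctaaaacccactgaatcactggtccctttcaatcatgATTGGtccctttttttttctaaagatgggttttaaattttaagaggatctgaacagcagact
Amtn: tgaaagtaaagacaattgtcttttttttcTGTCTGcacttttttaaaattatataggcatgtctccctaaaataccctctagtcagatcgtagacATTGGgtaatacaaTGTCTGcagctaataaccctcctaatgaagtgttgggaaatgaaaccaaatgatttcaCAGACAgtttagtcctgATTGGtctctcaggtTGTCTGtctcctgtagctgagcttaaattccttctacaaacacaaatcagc

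A reversed CCAAT box lay between 35 and 70 bases before the start in all 5 of these genes, at positions -58 to -54 in Amelx, -47 to -43 and -39 to -35 in Ambn, -70 to -66 in Enam, -62 to -58 in Odam and -66 to -62 in Amtn. Amelx had one more at -26 to -22, which shares 1 base with its TATA box at -31 to -26. CCAAT on either strand occurred in 5 of the 7 promoters, against 33.8% of 32851 RefSeq promoter windows of the same length, and TATAAA in 3 of the 7 (Amelx, Enam and Mmp20), against 12.4%. Amtn held 4 CAGA boxes, at -221 to -216, -141 to -136, -83 to -78 and -51 to -46, a copy number reached by 27 of the 32851 windows (0.0822%). Mmp20 held 1 CAGA box at -23 to -18, and at least 1 copy occurred in 17.1% of all windows. The palindromic SMAD element GTCTAGAC, found in 0.167% of windows, and the E-box CACGTG, found in 6.02%, were in none of the 7. TGTGGT, in 14% of windows, occurred upstream of Odam, and TAATTG, in 7.17%, upstream of Ambn and Odam. Klk4 matched none of the motifs. These matches describe letters and not bound sites. The motifs, the copy number and the stretch of 35 to 70 bases were chosen with the sequences and the levels known. The share of all windows with a reversed CCAAT box in that stretch was not counted.

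**Figure D1:**
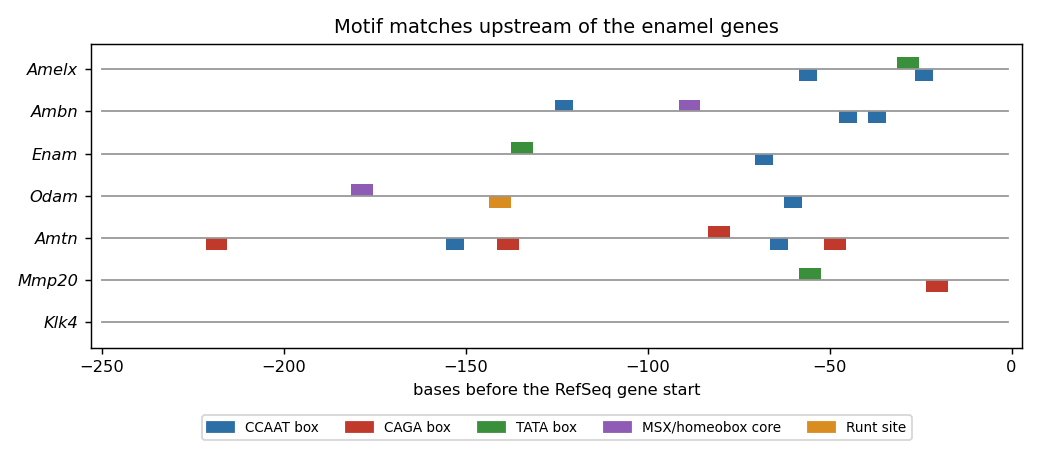
Motif matches in the 250 bases before the RefSeq start of 7 enamel genes; the x axis is the distance in bases before the start, boxes above the line are matches on the strand of the gene and boxes below it on the other strand. A reversed CCAAT box sits near the start of Amelx, Ambn, Enam, Odam and Amtn, and Amtn has 4 CAGA boxes.

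Library totals ran from 37591888 to 56575476 counts. The Smad7 counts were 80, 62 and 41 in the Smad7-/- libraries and 1097, 934 and 859 in the wild-type libraries, so each library matched its genotype label. The libraries also stood apart in a way that crossed genotype. On the first principal component (33.5% of the variance) Smad7-/- libraries 1 and 2 and wild-type library 1, called the first set here, lay on one side, and Smad7-/- library 3 with wild-type libraries 2 and 3, the second set, on the other. Xist, the X-inactivation RNA of female cells, was abundant in Smad7-/- library 3 and wild-type library 1 alone, at 365 and 195 CPM (read counts per gene, scaled to library size). As a check of the tissue, the epithelial keratin gene Krt5 stood at 3925 ± 489 CPM in Smad7-/- and 4285 ± 246 CPM in wild-type germs (SD, n = 3 each). The dentin matrix gene Dspp stood at 2092 ± 468 CPM in Smad7-/- and 2622 ± 900 CPM in wild-type germs. Enamel and dentin secretion in mouse molars is known to follow the cap stage, to which E15.5 first molars belong. The levels of Amelx and Dspp given here thus go against a cap-stage germ, and E15.5 is used only as the age the labels give.

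Amelx was the most abundant member by far. It had 6364, 8479 and 5999 CPM in Smad7-/- libraries 1, 2 and 3, against 6347, 10029 and 13709 CPM in wild-type libraries 1, 2 and 3. Its mean over the 6 libraries gave it rank 3 among all gene symbols. Per kilobase of exon it had rank 1 among the 21712 symbols with a single exon length in the annotation. The 8 genes together took 1.17% ± 0.190 of all counts in Smad7-/- and 1.75% ± 0.712 in wild-type germs (SD, n = 3 each; exact two-sided permutation p = 0.4, where 3 against 3 libraries cannot give less than 0.1). Amelx, Enam and Ambn made up 95.4% ± 0.0772 of those counts in Smad7-/- and 96.5% ± 1.28 in wild-type germs.

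Scaled to exon length (CPM per kilobase), the order of the levels was Amelx, Ambn, Enam, Odam, Mmp20, Tuft1, Klk4 and Amtn. Amelx averaged 6954 ± 1340 CPM per kilobase in Smad7-/- and 10038 ± 3685 in wild-type germs. Ambn followed with 913 ± 137 in Smad7-/- and 1515 ± 906 in wild type, and Enam with 440 ± 85.2 in Smad7-/- and 724 ± 289 in wild type, on the same scale. In each of the 6 libraries every gene of this order stood above the next, except that Klk4 stood above Amtn in 4 of 6. Neighbouring genes had overlapping ranges for Ambn with Enam and Odam with Mmp20 in the wild-type libraries, and for Klk4 with Amtn in the Smad7-/- libraries.

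**Figure D2:**
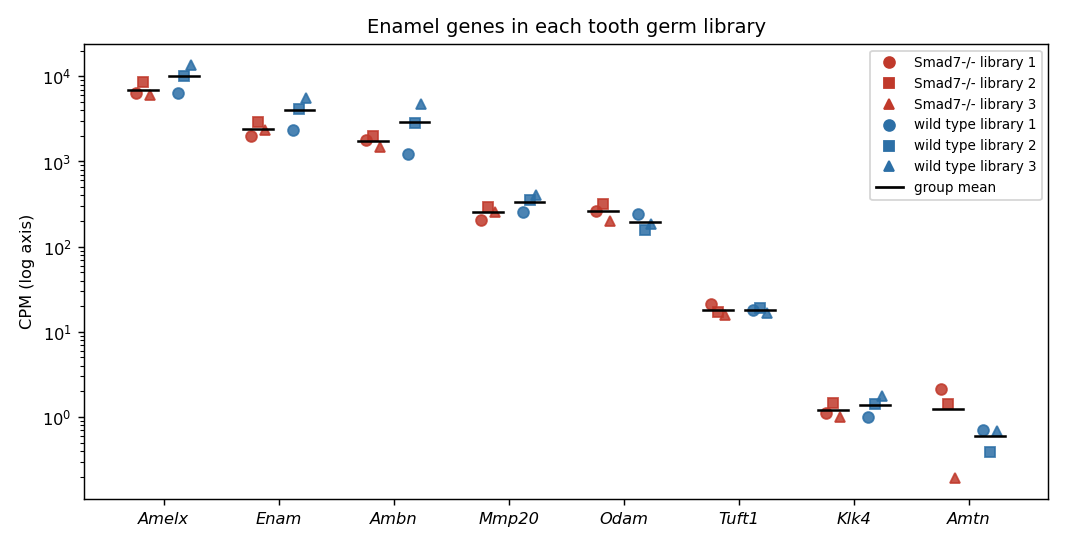
Levels of the 8 enamel genes in CPM on a log axis; each point is 1 library (red Smad7-/-, blue wild type) and each bar a group mean of 3. Amelx, Enam and Ambn reach their highest values in wild-type libraries 2 and 3, Odam and Amtn in Smad7-/- libraries 1 and 2, and the ranges of the groups overlap for every gene.

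Between the genotypes none of the 8 genes passed edgeR's quasi-likelihood test with Benjamini-Hochberg adjustment at 0.05 over 15284 genes, in which 0.0262% of all genes passed (0.0131% higher and 0.0131% lower in Smad7-/-). At an unadjusted p under 0.05 edgeR had 1 member, Enam, where 5.14% of all genes lay under that value. DESeq2 passed 0 members, against 0.351% of the 16816 genes to which it gave an adjusted p (0.262% higher and 0.0892% lower). At an unadjusted p under 0.05 it had 3 members (Enam, Mmp20 and Odam). Of those 16816 genes 5.41% lay under that value, and of all genes with a DESeq2 p 4.81%. By limma-voom 0 members passed and 1 (Enam) had an unadjusted p under 0.05, against 5.21% of all genes tested. The group ranges overlapped for all 8, where 8.88% of all genes tested had ranges that did not overlap. The estimate was higher in Smad7-/- for 3 members and lower for 5, with a median log2 fold change of -0.32 beside -0.0028 over all genes tested, of which 49.1% were higher and 50.9% lower. In bulk RNA, fewer ameloblasts and less transcript per ameloblast cannot be told apart.

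Enam had the smallest unadjusted p among the members in edgeR (0.0356), while in DESeq2 Mmp20 (0.0191) and Odam (0.0270) were below it (0.0494). Its level was 1999, 2921 and 2324 CPM in the Smad7-/- libraries, against 2333, 4104 and 5493 CPM in the wild-type libraries. Wild-type libraries 2 and 3 were above every Smad7-/- library, and wild-type library 1 was among them. The log2 fold change was -0.72 ± 0.29 SE (95% interval -1.38 to -0.06; n = 3; edgeR adjusted p = 0.900).

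Amelx had the same layout, with wild-type library 1 level with Smad7-/- library 1. Its log2 fold change was -0.53 ± 0.26 SE (95% interval -1.12 to 0.06; n = 3; edgeR adjusted p = 0.995), a ratio between 0.459 and 1.04 on the linear scale.

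Ambn varied most between wild-type libraries among the 8 genes, with a coefficient of variation of 15% in Smad7-/- and 59.8% in wild type. It had 1805, 1986 and 1468 CPM in the Smad7-/- libraries, against 1217, 2818 and 4689 CPM in the wild-type libraries. The lowest and the highest of the 6 values were thus both wild type. The log2 fold change was -0.73 ± 0.43 SE (95% interval -1.75 to 0.29; n = 3; edgeR adjusted p = 0.999).

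Of the proteases, Mmp20 stood at 207, 295 and 257 CPM in the Smad7-/- libraries, against 252, 351 and 410 CPM in the wild-type libraries. Wild-type libraries 2 and 3 were again the highest, and Smad7-/- library 2 exceeded wild-type library 1. Its log2 fold change was -0.41 ± 0.18 SE (95% interval -0.83 to 0.0044; n = 3; edgeR adjusted p = 0.963). Klk4 was scarce in both groups, with 42, 64 and 57 counts in the Smad7-/- libraries and 51, 70 and 84 counts in the wild-type libraries. That is 1.19 ± 0.250 CPM in Smad7-/- and 1.39 ± 0.383 CPM in wild-type germs (SD, n = 3 each), with a log2 fold change of -0.22 ± 0.32 SE (edgeR adjusted p = 0.999). Klk4 counts came to 0.474 ± 0.0801 per 100 Mmp20 counts in Smad7-/- and 0.409 ± 0.0183 in wild-type germs. In every library the maturation-stage protease thus had under 1 count per 100 of the secretory-stage one, before scaling to exon length (1249 bases against 3287). Per kilobase Klk4 averaged 0.955 CPM in Smad7-/- and 1.11 CPM in wild-type germs, against 77.1 and 103 CPM for Mmp20.

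Odam lay the other way. It had 264, 316 and 199 CPM in the Smad7-/- libraries, against 243, 158 and 187 CPM in the wild-type libraries. The 2 libraries in which Amelx was highest, wild-type 2 and 3, were those in which Odam was lowest. The log2 fold change was 0.41 ± 0.19 SE (95% interval -0.04 to 0.85; n = 3; edgeR adjusted p = 0.994).

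Amtn, whose upstream window carries the 4 CAGA boxes, was scarce. It had 79, 61 and 11 counts in the Smad7-/- libraries, against 36, 19 and 33 counts in the wild-type libraries. In CPM these are 2.10, 1.403 and 0.191 in Smad7-/- and 0.702, 0.384 and 0.691 in wild-type germs. The exact 95% Poisson intervals, which cover counting error only, were 1.66 to 2.62 CPM for Smad7-/- library 1 and 0.0953 to 0.342 CPM for Smad7-/- library 3. The Smad7-/- libraries thus held both the highest and the lowest value, further apart than counting error. The log2 fold change was 1.03 ± 0.70 SE (95% interval -0.55 to 2.61; n = 3; edgeR adjusted p = 0.999). It depended on single libraries, at 0.40 without Smad7-/- library 1 (edgeR adjusted p = 1.00) and 1.56 without Smad7-/- library 3 (edgeR adjusted p = 0.431), and by limma-voom it was 0.37.

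Tuft1 was even across the libraries, with 21.3, 17.1 and 15.7 CPM in Smad7-/- and 18.2, 18.8 and 16.8 CPM in wild-type germs. Its log2 fold change was 0.0059 ± 0.14 SE (95% interval -0.30 to 0.31; n = 3; edgeR adjusted p = 1.00), so a change beyond 1.24-fold upward or to under 0.812 of wild type lay outside the interval.

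**Figure D3:**
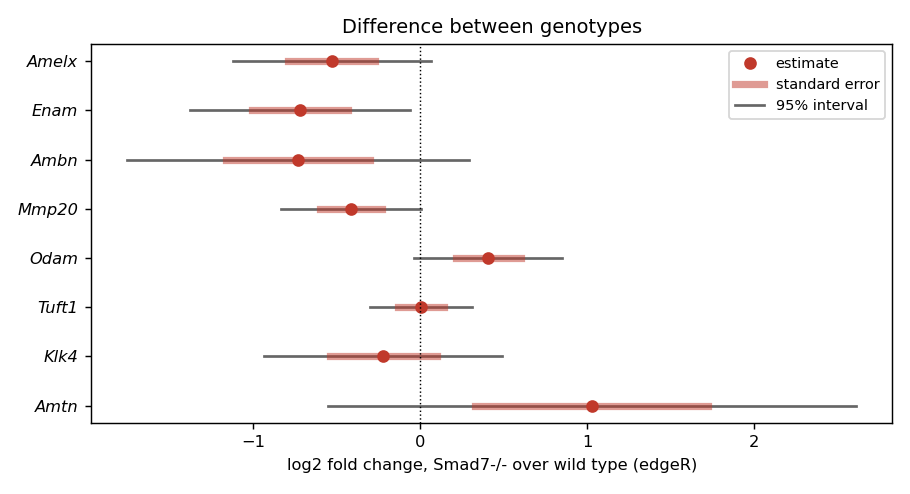
Log2 fold changes of the 8 enamel genes, Smad7-/- over wild type, from edgeR on 3 libraries per group; points are estimates, thick bars the standard error and thin lines the 95% interval. The intervals include 0 for every gene but Enam, whose interval runs from -1.38 to -0.06 and whose adjusted p is 0.900.

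The values were laid out differently in the 2 sets of libraries. In the first set Amelx averaged 7421 CPM in the 2 Smad7-/- libraries, against 6347 CPM in the 1 wild-type library. In the second set it was 5999 CPM in the 1 Smad7-/- library, against an average of 11869 CPM in the 2 wild-type libraries. For Ambn the values were 1895 against 1217 CPM in the first set and 1468 against 3754 CPM in the second, Smad7-/- first in each pair. Enam showed 2460 against 2333 CPM in the first set and 2324 against 4799 CPM in the second. Mmp20 was level in the first set (251 against 252 CPM) and stood at 257 against 380 CPM in the second. Odam was higher in Smad7-/- in both sets, with 290 against 243 CPM and 199 against 172 CPM. Amtn was higher in Smad7-/- in the first set (1.75 against 0.702 CPM) and lower in the second (0.191 against 0.538 CPM). With the set as a covariate the log2 fold changes were -0.38 for Amelx, -0.36 for Ambn, -0.48 for Enam, 0.23 for Odam and 0.13 for Amtn, and none of the 8 genes passed (edgeR adjusted p from 0.730 to 0.999). A difference between the sets in the effect of genotype was not tested, since each set holds a group with 1 library. Smad7-/- library 3 and wild-type library 1, where Xist was abundant, were the 2 lowest for Amelx, Ambn and Klk4, but not for the other members. With sex as a covariate, read from Xist and the Y-linked gene Ddx3y, none of the 8 genes passed by edgeR. The log2 fold changes were then -0.48 for Amelx, -0.57 for Ambn, -0.65 for Enam and 0.41 for Odam. The part of sex in these values was not tested further.

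Leaving out 1 library at a time moved the estimates by different amounts, most for Amelx, Enam, Ambn and Mmp20 when wild-type library 1 or 3 was the one. Without wild-type library 1 the log2 fold changes were -0.78 for Amelx, -0.995 for Enam, -1.10 for Ambn, -0.59 for Mmp20 and 0.59 for Odam. These 5 then had an unadjusted p under 0.05 and an adjusted p of 0.231 to 0.457 by edgeR, in a fit where 8.8% of all genes had an unadjusted p under 0.05. Without wild-type library 3 they were -0.24, -0.42, -0.21, -0.25 and 0.37 in the same order of genes, with 0 members at an unadjusted p under 0.05, where 5.92% of all genes lay under it. Without wild-type library 2 and without Smad7-/- library 1, 0 members lay under it, where 2.26% and 3.58% of all genes did. Without Smad7-/- library 2 there were 3, where 4.75% of all genes lay under it. Without Smad7-/- library 3 there were 2, where 8.9% of all genes lay under it. In these 4 fits 0 members passed.

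**Figure D4:**
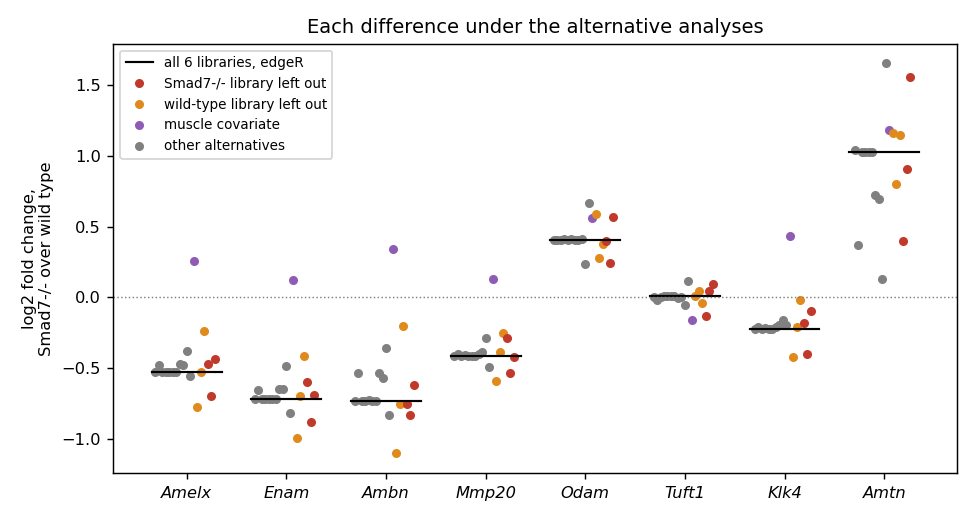
Log2 fold change of each enamel gene, Smad7-/- over wild type, under each alternative analysis; the black bar is the value from all 6 libraries by edgeR, and coloured points are fits with 1 library left out, with the muscle covariate, or with other settings. Amelx, Enam, Ambn, Mmp20 and Klk4 are below 0 except with the muscle covariate, and Odam and Amtn are above 0 throughout.

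Ratios within a library do not depend on how libraries are scaled. Enam came to 34.9 ± 3.68 counts per 100 Amelx counts in Smad7-/- and 39.3 ± 2.20 in wild-type germs (SD, n = 3 each). Ambn came to 25.4 ± 2.60 per 100 Amelx counts in Smad7-/- and 27.2 ± 7.56 in wild-type germs, and Mmp20 to 3.68 ± 0.542 in Smad7-/- and 3.49 ± 0.495 in wild-type germs. Odam came to 13.2, 10.8 and 8.58 counts per 100 Enam counts in the Smad7-/- libraries, against 10.4, 3.85 and 3.40 in the wild-type libraries, so that wild-type library 1 again lay within the Smad7-/- range. Of 9 such ratios none had group ranges that did not overlap, and the smallest exact two-sided permutation p was 0.2 (0.72 after Benjamini-Hochberg adjustment over the 9), with 0.1 the smallest that n = 3 each allows.

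Genes were ranked by how like their profile over the 6 libraries was to that of a member. The measure was the root mean square difference in log2(CPM + 0.5), after centring each gene on its own mean. It ran over 10843 other genes averaging 5 CPM or more, with symbols of Gm and a number, LOC, Rik and -ps left out. Among the 3 nearest to Amelx were Relt, a receptor of the tumour necrosis factor family whose loss causes enamel defects in humans, at 0.077, and Cd55, a complement inhibitor, at 0.098. Enam was at rank 6 from Amelx, Mmp20 at rank 11 and Ambn at rank 84, while Odam was at rank 10617. For Enam the nearest were Cd55 at 0.0997, Amelx at 0.13 and Relt at 0.14. For Ambn they were Galnt12, a glycosyltransferase, at 0.12, Clu, the secreted chaperone clusterin, at 0.14, and Lama3, a laminin chain, at 0.19. Relt had 33.2, 44.4 and 34.5 CPM in the Smad7-/- libraries, against 30.6, 51.3 and 74.2 CPM in the wild-type libraries. Clu had 1361, 1749 and 1042 CPM in the Smad7-/- libraries, against 1004, 1886 and 3297 CPM in the wild-type libraries. Both repeat the layout of Amelx, with wild-type library 1 low and wild-type library 3 high. The points share libraries and depth, so likeness describes these 6 libraries and no more.

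**Figure D5:**
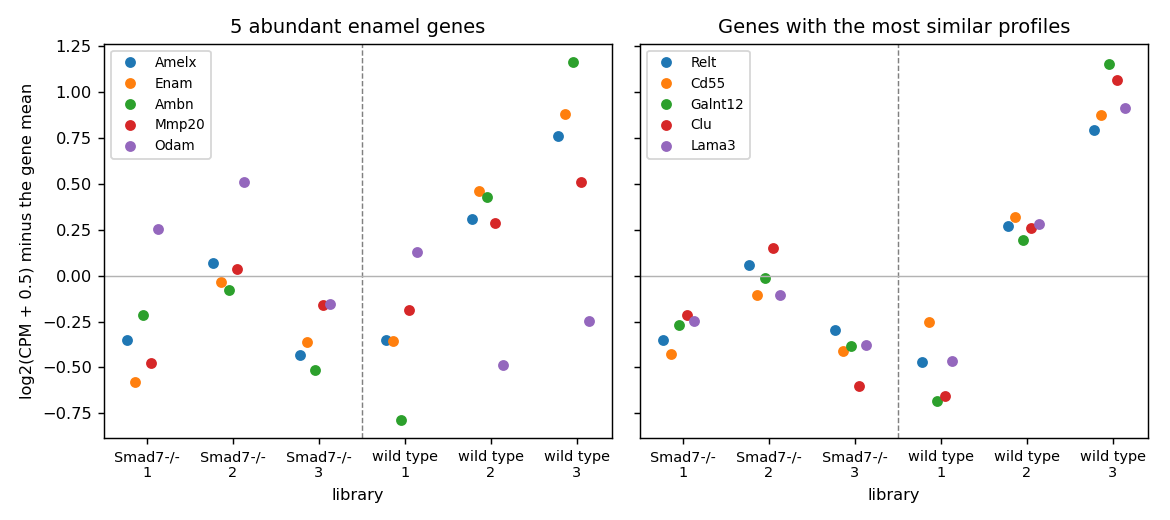
Level of each gene in each library as log2(CPM + 0.5) minus the mean of the gene over the 6 libraries; the left panel holds 5 enamel genes and the right panel 5 other genes among the 3 nearest to Amelx, Enam or Ambn. Wild-type library 3 is the highest point of every gene except Odam, which is highest in Smad7-/- library 2 and lowest in wild-type library 2.

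Other genes of enamel formation were read from lists. Of 21 genes whose loss or mutation disturbs enamel or ameloblast attachment and transport, 0 passed edgeR's test or DESeq2. At an unadjusted p under 0.05 edgeR had 1, where 5.14% of all genes lay under it. The estimate was lower in Smad7-/- for 16 and higher for 5, with a median log2 fold change of -0.14, where 50.9% of all genes were lower. The most abundant were Lamb3, a laminin chain, at -0.18 ± 0.12 SE, Col17a1, the hemidesmosomal collagen, at -0.02 ± 0.14, and Itgb4, its integrin partner, at -0.15 ± 0.10. The 1 gene, Itgb6, an epithelial integrin that activates TGF-beta, is named with its values already known, at 38.2 ± 2.68 CPM in Smad7-/- and 53.3 ± 11.1 CPM in wild-type germs (log2 -0.48 ± 0.14 SE; n = 3; edgeR adjusted p = 0.706).

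Of 15 transcription factors of ameloblasts, 7 were higher and 8 lower, with a median log2 fold change of -0.0052. None passed in edgeR or DESeq2, and 1 had an unadjusted p under 0.05 in edgeR, where 5.14% of all genes did. That gene was Sp6, without which ameloblasts do not mature, at 1498 ± 94.8 CPM in Smad7-/- and 1798 ± 159 CPM in wild-type germs (log2 -0.26 ± 0.11 SE; n = 3; edgeR adjusted p = 0.919). Satb1, a chromatin organiser, stood at -0.21 ± 0.10 SE and Dlx3, a homeobox factor that activates enamel genes, at -0.08 ± 0.09. For 2 of the 15, Sp6 and Satb1, the group ranges did not overlap, where 8.88% of all genes tested had such ranges. The 15 summed to 3903 to 4089 CPM in Smad7-/- and 4113 to 4670 CPM in wild-type libraries. These ranges do not overlap, and Sp6 and Satb1 weigh most in the sum.

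The SCPP relatives, among them Odaph of the enamel list, summed to 5297 to 6480 CPM in Smad7-/- and 4528 to 7721 CPM in wild-type libraries. Of 9 tested, 6 were higher and 3 lower, none passed in edgeR or DESeq2, and edgeR had 1 at an unadjusted p under 0.05, the bone sialoprotein gene Ibsp (log2 0.44 ± 0.12 SE), named with its values already known. Sparc, a bone matrix gene, stood at 0.17 ± 0.17 SE, Dspp at -0.33 ± 0.27 SE and the dentin and bone matrix gene Dmp1 at 0.03 ± 0.21. The milk caseins Csn1s1 and Csn2, which lie near the enamel genes on chromosome 5, were at 0 counts in all 6 libraries. Of enamel knot and inner enamel epithelium genes 12 were tested, 5 higher and 7 lower. In edgeR 0 passed and 4 had an unadjusted p under 0.05, where 5.14% of all genes tested did. Of these 4, 3 were higher in Smad7-/- and 1 lower. In DESeq2 1 passed, where 0.351% of the genes with an adjusted p did. Shh, the hedgehog ligand of this epithelium, stood at -0.37 ± 0.11 SE, Wnt10a at -0.20 ± 0.10 and the homeobox gene Msx2 at -0.0052 ± 0.095, while the cell cycle inhibitor Cdkn1a, higher by DESeq2 (adjusted p = 0.00834), stood at 0.78 ± 0.17 in edgeR (adjusted p = 0.536).

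Markers of tissue content were read beside these genes. The summed level of 13 epithelial markers ran from 9444 to 11642 CPM in Smad7-/- and from 11062 to 12380 CPM in wild-type libraries. Of the 13, 12 had a lower estimate in Smad7-/- and none passed in edgeR or DESeq2 (2 at an unadjusted p under 0.05 in edgeR), with Krt5 at -0.13 ± 0.13 SE, Krt14 at -0.14 ± 0.12 and the junction gene Perp at -0.09 ± 0.15. With this summed level as a covariate the log2 fold changes were -0.56 for Amelx, -0.82 for Enam and 0.66 for Odam, each further from 0 than without it. All 12 mesenchyme markers had a higher estimate, 0 passing in edgeR (7 at an unadjusted p under 0.05, where 5.14% of all genes lay under it) and 1 in DESeq2 (Prrx1, a homeobox gene, at 0.57 ± 0.11 SE). For 8 of the 12 the group ranges did not overlap, all higher in Smad7-/-. Over all genes tested 8.88% had such ranges in either direction. The collagen genes Col1a1, Col1a2 and Col3a1, the most abundant, stood at 0.09 ± 0.18, 0.09 ± 0.19 and 0.46 ± 0.16 SE. The summed level of the 12 ran from 21359 to 26328 CPM in Smad7-/- and from 17841 to 27342 CPM in wild-type libraries. Col1a1 (means 12349 CPM in Smad7-/- and 11628 CPM in wild type) and Col1a2 (8436 and 7920 CPM) weigh most in this sum. Odontoblast and osteoblast markers summed to 13564 to 17598 CPM in Smad7-/- and 12008 to 19062 CPM in wild-type libraries, lowest in wild-type library 1 and highest in wild-type library 3, as Ambn was. The mesenchyme sum, which shares Col1a1 with this list, had the same extremes, while the epithelial sum was highest in wild-type library 1. Of the 9 odontoblast and osteoblast markers 7 were higher and none passed in edgeR or DESeq2 (2 at an unadjusted p under 0.05 in edgeR). The part of tissue content in the values of the enamel genes was not tested further.

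Markers of tissues other than tooth were summed in the same way. Salivary gland markers, relevant because Odam is known from glands too, summed to 1.86 to 3.52 CPM in Smad7-/- and 2.01 to 2.70 CPM in wild-type libraries, with Smr3a, Bpifa2 and Prol1 at 0 in all 6. Keratinised epithelium markers summed to 48.3 to 86.2 CPM in Smad7-/- and 49.4 to 68.3 CPM in wild-type libraries, with 2 of 5 tested higher. Red blood cell markers summed to 202 to 254 CPM in Smad7-/- and 260 to 458 CPM in wild-type libraries, ranges that do not overlap, with 4 of 4 tested lower. Hba-a1 and Hba-a2 are listed at 0, so this sum holds no alpha globin. Skeletal muscle markers summed to 6.39 to 8.44 CPM in Smad7-/- and 8.51 to 10.5 CPM in wild-type libraries, again with no overlap and with 6 of 7 tested lower. None of these markers passed in edgeR or DESeq2. At an unadjusted p under 0.05 edgeR had 1 keratinised, 1 salivary, 3 red blood cell and 2 muscle markers. Over all genes tested 5.14% lay under that value. With the muscle sum as a covariate the log2 fold changes of Amelx, Ambn, Enam, Mmp20 and Klk4 lay above 0 (0.26, 0.34, 0.12, 0.13 and 0.44) and none passed by edgeR. Since the muscle sum separates the genotypes, its part and that of genotype cannot be told apart.

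Genes next to the members were read to see whether a level could spill from a neighbour, since the library kit does not mark strand. Arhgap6, the gene around Amelx, had 6.54 ± 0.960 CPM in Smad7-/- and 5.23 ± 0.582 CPM in wild-type germs, with a log2 fold change of 0.32 ± 0.18 SE. Hccs and Msl3, the nearest genes with counts on either side, stood at -0.10 ± 0.09 and -0.03 ± 0.09. Utp3, 48413 bases after Enam, stood at 0.05 ± 0.10 and Snx27, 30041 bases from Tuft1, at -0.04 ± 0.10. Jchain, nearer to Enam, and Rpl31-ps11 and Gm15234, nearer to Tuft1, were not among the counted symbols. Gm15234, on the other strand, lies 89 bases from Tuft1, so a spill from it could not be read. On the side of Tuft1 away from Snx27 the pseudogene BC021767 had 1, 1 and 6 counts in Smad7-/- and 8, 16 and 7 counts in wild-type libraries. The proteases nearest to Mmp20, Mmp27 and Mmp7, had at most 4 counts in any library, and Klk5, before Klk4, at most 2. Klk15, after Klk4, had 27, 64 and 52 counts in Smad7-/- and 55, 68 and 45 counts in wild-type libraries. Prol1, before Amtn, was at 0 in all 6, and 1700066N21Rik, after Odam, had 2 to 12 counts. AV064505, which overlaps Mmp20, and Gm10972, which overlaps Tuft1, both on the other strand, share 0 exonic bases with their partner and have no row in the tables.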

How the data were processed

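The authors deposited raw counts per gene symbol, 1 table per library, whole numbers with no normalization. Reads were aligned with HISAT2 to mm10 and counted with featureCounts, per the submitters' processing notes and the file headers, with DESeq2 also named and versions and strand setting not given in the sources used here. From these counts, filterByExpr (minimum count 10) kept 15284 genes, all 8 enamel genes included. Library sizes were scaled by TMM (factors 0.984 to 1.02). The test was edgeR 4.0.16 (quasi-likelihood, robust, no covariate) under R 4.3.3, with Benjamini-Hochberg adjustment across the genes tested and a threshold of 0.05. CPM use the TMM sizes, and exon lengths are merged GENCODE M21 exons. DESeq2 1.42.0 and limma-voom (limma 3.58.1), other scalings, filters, covariates, a replicate block and leaving out each library were alternatives. Genes named are the 8, the 3 most abundant tested genes of each list, list genes past a threshold, neighbours and the nearest profiles; markers of other tissues are given as sums, and Itgb6 and Ibsp stand outside this rule. A gene the rule names, near Amelx in profile, is not reported here. Odaph and Acp4 were matched through older symbols. The genes and lists were chosen with earlier results of these data known. The procedure was tested on simulated data. Precision rests on the spread between the 3 libraries of a group as well as on library totals of 37591888 to 56575476 counts. Since no molecular identifiers were used, intervals from counts cover counting error only. Figures were drawn with matplotlib 3.10.9.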

Additional observations from a re-analysis of the deposited data

How the results depend on the processing

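The count of 0 enamel genes called held under each of the 18 alternatives run. The count of all genes called, 4, was 59 by DESeq2, 2 at a mean of at least 5 CPM, 2 with the epithelial covariate, 0 with the skeletal muscle covariate, and 1 to 7 with 1 library left out (2, 1 and 7 without Smad7-/- libraries 1, 2 and 3). The sign of Odam and Amtn held under every alternative in which they were tested (18 and 17). Amelx, Ambn, Enam, Mmp20 and Klk4 changed sign with the skeletal muscle covariate alone, to 0.26, 0.34, 0.12, 0.13 and 0.44. Tuft1, near 0, changed sign by limma-voom (-0.023), with the replicate block (-0.0031), the library split (-0.054) and the muscle covariate (-0.16), and ran from -0.13 to 0.10 with 1 library left out. Residuals of same-numbered libraries correlated at 0.17, -0.034 and 0.093, and not every library correlated best with its own number. So few libraries cannot settle whether the numbers pair the samples. With the replicate block 4 genes and 0 enamel genes were called. The causes of these changes were not tested. Amtn and Klk4 had 11 to 84 counts a library, so counting error adds to the spread between their libraries.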
